A study of Mus musculus with 17 samples.

Results

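Lungs of Clic4 knockout (KO) mice were compared with wild-type (WT) lungs at day 0, the start of a study of the host's role in metastasis of mouse mammary tumours. The comparison took every library labelled KO or WT at day 0: 2 KO and 4 WT libraries, 6 of the 17 libraries in the series. Both genotypes were lung of mice 6 weeks old with the strain label FVB/6DT1, and no treatment was labelled for either at day 0. 6DT1 names a line of mouse mammary tumour cells. The labels do not describe how the knockout allele was made, do not name littermates, and do not say that each library came from a separate mouse, so the p-values cover only the spread among these libraries, which may be technical. The design text speaks of 5 WT and 6 KO mice at day 0 and of 2 WT and 6 KO mice at day 14, which differs at both days from the labels of the libraries analysed here, and the labels were followed. The 5 KO and 6 WT libraries of day 14 (mice 8 weeks old) shared the estimate of the spread and gave a second, separate KO against WT contrast.

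Clic4 encodes chloride intracellular channel 4, a small glutathione S-transferase-like protein that exists in a soluble and a membrane-inserted form. It is known for its part in endothelial tube formation and in transforming growth factor beta (TGF-beta) signalling, where it keeps Smad proteins phosphorylated in the nucleus. The CLIC family in the mouse further holds Clic1, Clic3, Clic5 and Clic6, and the lung is rich in endothelium, in which Clic4 is abundant.

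The day 0 libraries held 27192368 to 35261458 counts each. All 6 carried the marks of lung: the surfactant gene Sftpc stood at 10236.6 to 14250.5 CPM (counts per 1000000 counts of the library, scaled), the club cell gene Scgb1a1 at 13083.8 to 17916.3 CPM and the type 1 cell gene Ager at 1493 to 1840 CPM. In KO, Scgb1a1 stood at 14240.6 and 17916.3 CPM and Ager at 1710 and 1535 CPM. Albumin (Alb), a liver gene, stood at 0.388 and 0.596 CPM in KO and below 1 CPM in each library. Of 9 tested genes of mammary tumour epithelium, 7 were above 0, with a median of 0.15 (0.077 without KO replicate 1 and 0.098 without WT replicate 4), and 3 (33.3%) had both KO libraries above all WT. Their summed level overlapped, at 549.5 and 541 CPM in KO and 475 to 564 CPM in WT. The basal keratin gene Krt14, singled out after its values were seen, stood at 0.953 and 1.68 CPM in KO and 0.481 to 0.610 CPM in WT. Krt8, a marker set beforehand, overlapped, at 149.6 and 155 CPM in KO and 138 to 174 CPM in WT. The part of these genes in the results was not tested. Some libraries stood apart in part of their genes. KO replicate 2 held brown fat RNA (Ucp1 at 24.2 CPM, against 0.0283 to 0.106 CPM in the other 5) and high heat shock genes. KO replicate 1 was low in immediate early genes, and WT replicate 4 was high in interferon-stimulated genes and held Glycam1, a lymph node vessel gene, at 17.8 CPM against 0 to 0.494 CPM (0.494 and 0.149 CPM in KO). The 2 KO libraries differed from each other more (chi-square per gene of 27.8) than any 2 WT libraries did (12.4 to 22.5).

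Across the 19557 genes tested, 5 passed an adjusted p of 0.05, which is 0.0256% of the genes: Selenon and Gm10036 rose in KO lung, and Clic4, Pnrc2 and Rsc1a1 fell. The adjusted p is that of edgeR's quasi-likelihood test with Benjamini-Hochberg adjustment over all genes tested, here and below. At an unadjusted p under 0.05, 3.15% of the genes were higher and 3.59% were lower in KO. Both KO libraries lay above all 4 WT libraries in 8.88% of the genes and below all 4 in 9.12%. The median log2 fold change over all genes was 0.00073.

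Clic4 itself stood at 324 and 327 CPM in the 2 KO libraries and at 925, 943, 953 and 952 CPM in the 4 WT libraries. The groups did not overlap, and Clic4 fell by 1.53 on the log2 scale (SE 0.133, adjusted p = 1.93e-05), to 34.6% of the WT level. All 15 ways to split the 6 libraries into 2 and 4 were compared in an exact two-sided permutation test, which gave p = 0.0667, the smallest value it can give. The gene lies at chr4:135213969-135272814 on the minus strand (GRCm38). The KO libraries kept Clic4 counts, and which exons they came from was not analysed here. On the authors' FPKM scale, which corrects for gene length, WT lung held 241 ± 3.88 FPKM of Clic4 (SD, n = 4) and the KO libraries held 83.2 and 82.0 FPKM.

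No other CLIC gene passed the test. On the same length-corrected scale, Clic5, which links the membrane to the cytoskeleton and is abundant in type 1 cells, was the next highest in WT lung at 207 ± 5.97 FPKM. It was followed by Clic3 at 164 ± 3.17 FPKM, Clic1 at 124 ± 5.73 FPKM and Clic6 at 9.77 ± 0.696 FPKM (SD, n = 4 each). These WT ranges did not overlap between neighbours in that order, and Clic4 headed it in WT. In the KO libraries Clic4 lay below Clic5, Clic3 and Clic1 and above Clic6. Clic5 stood at 1028 and 1141 CPM in KO and 1134, 1174, 1181 and 1206 CPM in WT (log2 fold change -0.11, SE 0.0886, adjusted p = 0.840). Clic6, the longest family member, stood at 38.9 and 38.4 CPM in KO and 31.7, 34.8, 37.7 and 34.9 CPM in WT (log2 fold change 0.15, SE 0.0805, adjusted p = 0.765). Both KO values of Clic6 lay above all WT values, by little. For Clic1 the log2 fold change was -0.0013 (SE 0.0609, adjusted p = 0.9996) and for Clic3 it was 0.036 (SE 0.105, adjusted p = 0.970), with overlapping libraries in both: the KO libraries held 159 and 154 CPM of Clic1 and 96.9 and 87.3 CPM of Clic3.

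**Figure D1:**
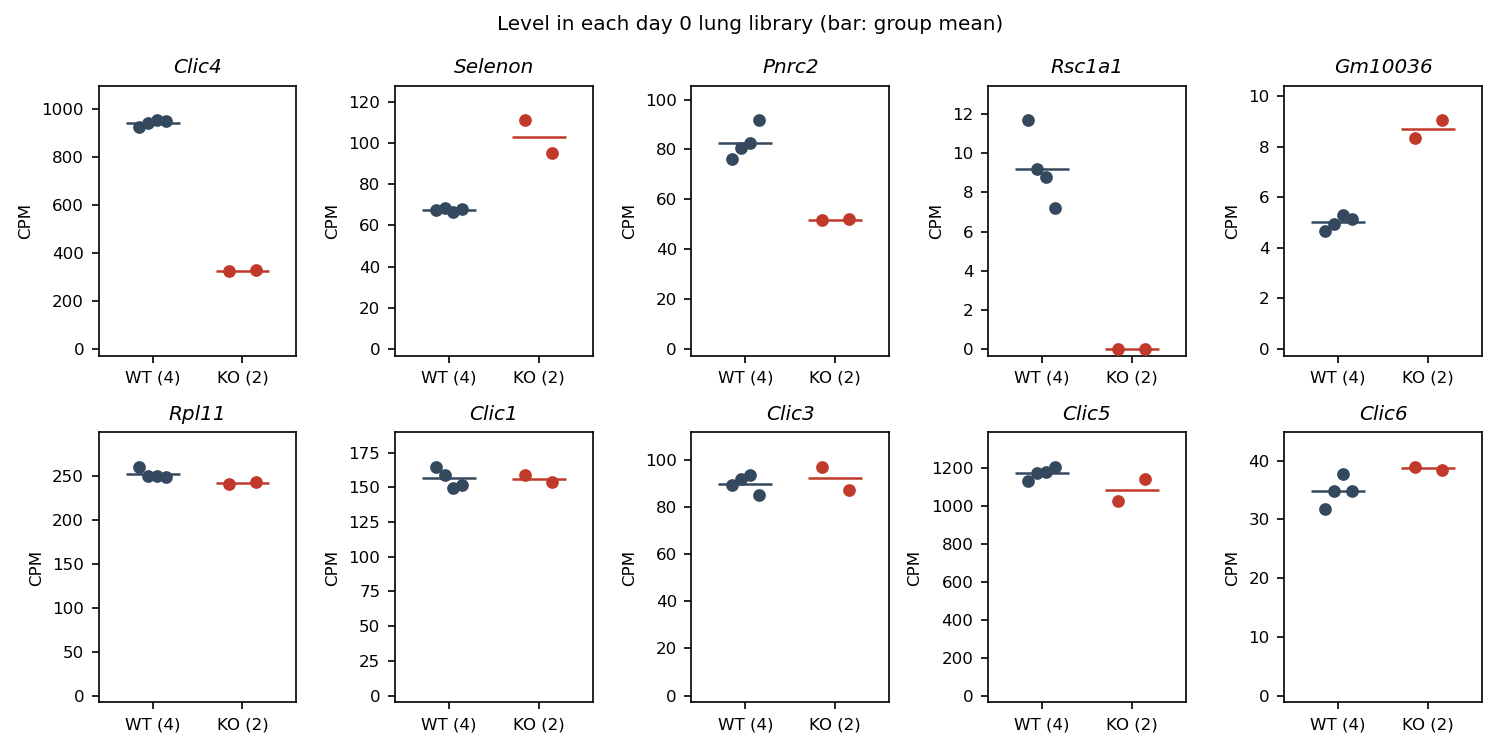
CPM (vertical axes) of the 5 genes that passed the test, of Rpl11 and of the other CLIC genes in each day 0 library; points are libraries and bars are group means. Clic4 sits at 324 and 327 in KO and between 925 and 953 in WT, while Clic1, Clic3 and Clic5 overlap between the genotypes.

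Selenon encodes selenoprotein N, a selenium-containing protein of the endoplasmic reticulum that is known for its part in calcium handling and in inherited muscle disease. It stood at 111 and 95.03 CPM in KO and at 67.4, 68.2, 66.6 and 68.0 CPM in WT. The KO libraries lay well above a narrow WT range, and Selenon rose by 0.61 on the log2 scale (SE 0.0632, adjusted p = 0.000143). Selenon lies at chr4:134537892-134552166, 0.662 Mb from Clic4. Of the other 21 tested selenoprotein genes none passed the test, and the median log2 fold change of all 22 was 0.06. Gpx3, the secreted glutathione peroxidase, had the next smallest p: it stood at 1081 and 919.5 CPM in KO and 755, 735, 902 and 915 CPM in WT (adjusted p = 0.703). The list had 18 of 22 members above 0 and 4 with both KO libraries above all WT. Without KO replicate 1 it had 11 above 0 and 11 below, with a median of 0.0018, and without KO replicate 2 the median was 0.099.

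Pnrc2 encodes a small adaptor that couples nonsense-mediated decay to mRNA decapping and that also binds nuclear receptors. It stood at 51.8 and 52.0 CPM in KO and 76.2, 80.7, 82.5 and 91.7 CPM in WT, without overlap, and fell by 0.67 on the log2 scale (SE 0.110, adjusted p = 0.0343). It lies at chr4:135870918-135873850, 0.598 Mb from Clic4. Of the 5 calls this was the one lost most often, in 13 of 26 alternative settings. Among them were those without either KO library or without WT replicate 2, 3 or 4. The log2 fold change of Pnrc2 stayed between -0.71 and -0.55 in all 26. Of the 20 tested genes of decapping and nonsense-mediated decay, 9 were above 0 and 11 below, with a median of -0.02 (0.027 without KO replicate 1, -0.073 without KO replicate 2 and -0.040 without WT replicate 3). Its paralog Pnrc1 stood at 63.3 and 78.7 CPM in KO and 56.3, 56.0, 63.5 and 61.5 CPM in WT (log2 fold change 0.26, adjusted p = 0.729). Xrn1, the exonuclease that degrades decapped mRNA, stood at 54.8 and 55.7 CPM in KO and 61.9 to 67.1 CPM in WT (log2 fold change -0.20, adjusted p = 0.729).

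Rsc1a1, an intronless gene whose protein controls sodium-glucose transporters, was at 0 CPM in both KO libraries and at 11.7, 9.22, 8.77 and 7.20 CPM in WT. Against a floor of 3 counts over the KO group, it was at least 169.7-fold lower in KO (adjusted p = 0.0102). The call was lost without either KO library and with limma-voom. All 1749 bases of its exon (100%) at chr4:141683851-141685599 lie inside exons of Ddi2 on the same strand, so reads of the pair can be split between them by the counting. Ddi2, a ubiquitin-directed protease, stood at 155 and 170 CPM in KO and 142, 132, 141 and 159 CPM in WT. Summed over both genes the groups differed less, with a mean of 162 CPM in KO and 152 CPM in WT. At day 14 all 5 KO libraries had Rsc1a1 counts, at 3.49 to 7.62 CPM, within the WT range of 1.46 to 9.32 CPM. Of all genes in the tested set, 10 had counts in all 4 WT libraries and in neither KO library, and 1 had the reverse. The first pattern needs no counts in 2 libraries and the second no counts in 4, so these numbers cannot be compared.

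Gm10036, a processed pseudogene on chromosome 18, stood at 8.33 and 9.05 CPM in KO and 4.67, 4.96, 5.32 and 5.16 CPM in WT. It rose by 0.79 on the log2 scale (SE 0.116, adjusted p = 0.0106), a call that was lost without either KO library, without WT replicate 2, or with the day 0 libraries alone. Its transcript matches 530 of 534 bases (99.3%) of a transcript of Rpl11, the ribosomal protein gene that lies 0.755 Mb from Clic4, so its counts are uncertain. Rpl11 stood at 240 and 243 CPM in KO and 260, 250.3, 250 and 249 CPM in WT (log2 fold change -0.06, SE 0.0636, adjusted p = 0.889). A second Rpl11 copy on chromosome 9, Gm7589, matches it at 97.9% and went the other way, with 0.212 and 0.335 CPM in KO and 0.716 to 0.883 CPM in WT (adjusted p = 0.581). At day 14 Gm7589 stood at 0 to 0.127 CPM in KO and 0.680 to 0.906 CPM in WT, and it fell by 3.37 on the log2 scale (adjusted p = 8.89e-05). Of 34 tested cytosolic ribosomal protein genes none passed the test, and their log2 fold changes ran only from -0.07 to 0.07.

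Tested genes near Clic4 had an unadjusted p under 0.05 more often than genes elsewhere. Within 5 Mb of Clic4, 32 of 175 tested genes (18.3%, Clic4 left out) had an unadjusted p under 0.05, 22 of them higher and 10 lower in KO. The share was 6.02% at 5 to 10 Mb and 3.76% at 10 to 20 Mb. Farther along chromosome 4 it was 8.43%, and 6.62% of the genes on all other chromosomes had such a p. By overlap the region differed less. Within 5 Mb, both KO libraries lay above all WT in 12.6% of the genes and below all WT in 9.14%. On other chromosomes these shares were 8.81% and 9.17%. Selenon and Pnrc2 were among the 175. Zfp46, a zinc finger gene about 1 Mb away, stood at 25.7 and 23.3 CPM in KO and 35.3, 37.8, 39.0 and 36.1 CPM in WT (log2 fold change -0.60, SE 0.113, adjusted p = 0.1404). Asap3, an Arf GTPase-activating protein linked to actin remodelling and 0.934 Mb away, stood at 21.1 and 24.2 CPM in KO and 13.9, 14.7, 12.02 and 12.3 CPM in WT (log2 fold change 0.77, SE 0.165, adjusted p = 0.244). The groups did not overlap in either gene. Slc30a2, a zinc transporter gene singled out after its values were seen, stood at 2.33 and 1.34 CPM in KO and 0.481 to 0.779 CPM in WT (adjusted p = 0.156).

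The same genes were examined at day 14, in libraries that the day 0 contrast does not use. Of the 32 genes within 5 Mb with an unadjusted p under 0.05 at day 0, 30 (93.8%) had the same direction at day 14, against 93 of the other 143 (65.0%). Zfp46 fell by 0.62 (adjusted p = 0.000691), Asap3 rose by 0.63 (adjusted p = 0.0449) and Slc30a2 rose by 1.44 (adjusted p = 0.00634) on the log2 scale at day 14, where they passed the test. Whether the 2 genotypes differ in sequence within these 5 Mb was not analysed here.

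**Figure D2:**
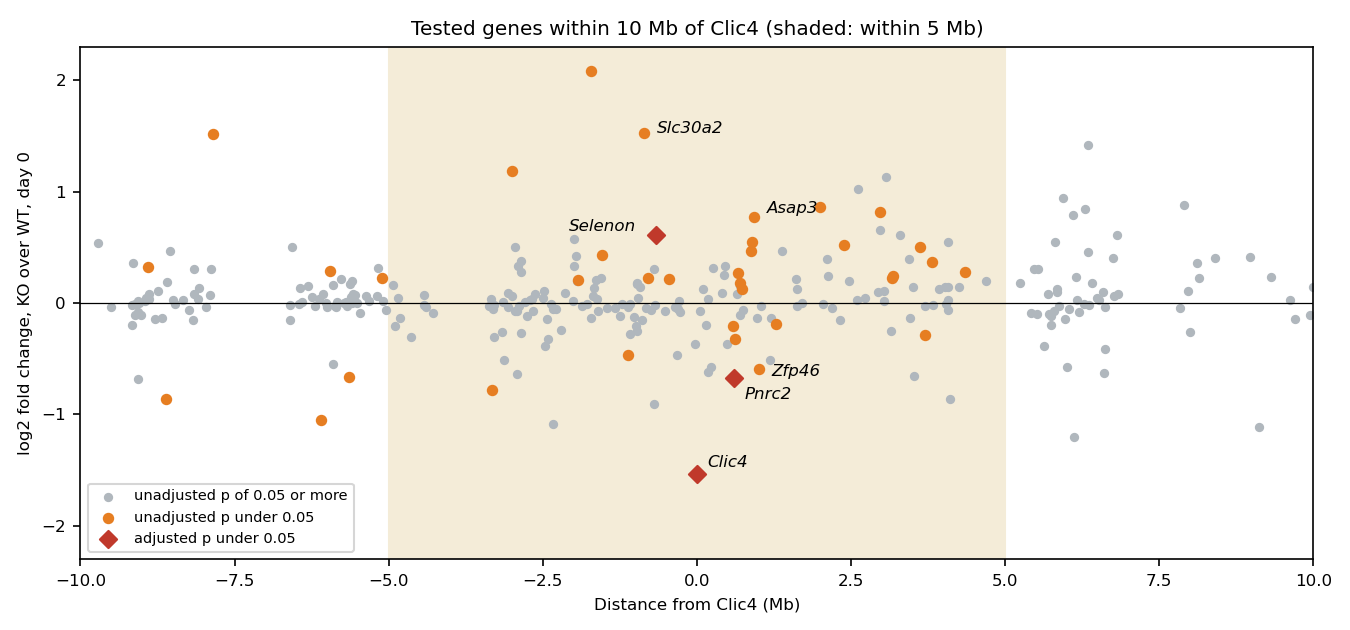
Log2 fold change of KO over WT at day 0 (vertical axis) against distance from Clic4 in Mb (horizontal axis) for tested genes within 10 Mb; 3 of the 309 genes, Rsc1a1 among them, lie beyond the vertical limits. Red diamonds passed the adjusted test and orange points had an unadjusted p under 0.05; 32 such genes besides Clic4 lie in the shaded 5 Mb.

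Among genes that did not pass, 12 higher and 12 lower protein-coding genes were taken by the smallest p with no overlap between the groups and at least 5 CPM. Lmod1, a smooth muscle actin nucleator, stood at 21.25 and 20.99 CPM in KO and 13.5, 15.1, 15.5 and 12.97 CPM in WT (log2 fold change 0.57, SE 0.124, adjusted p = 0.269). Cd248 (endosialin), a surface protein of pericytes and fibroblasts, stood at 25.55 and 21.9 CPM in KO and 16.2, 17.8, 18.9 and 13.3 CPM in WT (0.52, adjusted p = 0.406). Prelp, a matrix proteoglycan, was steadier, at 704 and 700 CPM in KO and 555, 593, 598 and 564 CPM in WT (0.28, adjusted p = 0.444). Smoc2, a secreted matricellular protein, stood at 24.1 and 24.7 CPM in KO and 19.1, 15.7, 19.1 and 18.6 CPM in WT (0.43, adjusted p = 0.471).

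Itgbl1, an integrin beta-like secreted protein, stood at 11.8 and 9.64 CPM in KO and 6.45 to 7.99 CPM in WT (0.58, adjusted p = 0.444), and Stc2, a secreted glycoprotein of the stanniocalcin family, at 8.36 and 7.78 CPM in KO and 4.69 to 5.62 CPM in WT (0.64, adjusted p = 0.401). Agpat2, an enzyme of triglyceride and phospholipid synthesis, stood at 30.5 and 32.6 CPM in KO and 23.2 to 25.4 CPM in WT (0.38, adjusted p = 0.391). Gpd1, the cytosolic glycerol-3-phosphate dehydrogenase, was uneven between the KO libraries, at 37.9 and 72.6 CPM against 27.2 to 29.4 CPM in WT (0.97, adjusted p = 0.444). The higher value was in the library that held brown fat RNA. Rragd, a GTPase of the nutrient-sensing mTORC1 pathway, stood at 17.9 and 14.7 CPM in KO and 9.95 to 13.3 CPM in WT (0.49, adjusted p = 0.401). Atic, an enzyme of purine synthesis, stood at 42.6 and 39.05 CPM in KO and 32.7 to 34.9 CPM in WT (0.27, adjusted p = 0.471). Wnk4, a kinase that controls chloride cotransport, stood at 13.9 and 13.4 CPM in KO and 9.35 to 11.3 CPM in WT (0.39, adjusted p = 0.552), and Asap3 completed the 12.

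Among the 12 lower genes, Gcc2, a golgin of the trans-Golgi network, stood at 62.4 and 74.7 CPM in KO and 91.8, 88.0, 91.0 and 90.9 CPM in WT (log2 fold change -0.40, SE 0.0769, adjusted p = 0.1404). Jarid2, a component of Polycomb repressive complex 2, stood at 39.2 and 40.2 CPM in KO and 50.4 to 51.9 CPM in WT (-0.37, adjusted p = 0.269), a tight pair of groups. St8sia4, which builds polysialic acid, stood at 42.8 and 42.5 CPM in KO and 60.3, 69.1, 57.5 and 61.7 CPM in WT (-0.54, adjusted p = 0.269). Mdm4, an inhibitor of p53, stood at 126 and 141 CPM in KO and 156 to 161 CPM in WT (-0.25, adjusted p = 0.549). Lax1, an adaptor of lymphocyte receptor signalling, stood at 5.33 and 3.61 CPM in KO and 6.88 to 9.53 CPM in WT (-0.85, adjusted p = 0.471).

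Slco5a1, an organic anion transporter family gene, stood at 4.69 and 2.87 CPM in KO and 6.11 to 8.92 CPM in WT (-1.002, adjusted p = 0.444). Zfc3h1, a scaffold of nuclear RNA decay, stood at 51.8 and 55.4 CPM in KO and 68.1 to 76.4 CPM in WT (-0.41, adjusted p = 0.444). Rev3l, the catalytic subunit of a translesion polymerase, stood at 31.9 and 37.9 CPM in KO and 41.2 to 44.1 CPM in WT (-0.30, adjusted p = 0.471). Nin, a centrosomal protein, stood at 65.5 and 70.99 CPM in KO and 79.7 to 85.5 CPM in WT (-0.26, adjusted p = 0.473). In all 3 both KO libraries lay below the WT range. Ncapd3, a condensin subunit, stood at 18.4 and 19.9 CPM in KO and 21.5 to 27.1 CPM in WT (-0.35, adjusted p = 0.549). Hdgfl3 stood at 21.5 and 22.9 CPM in KO and 27.3 to 28.7 CPM in WT (-0.33, adjusted p = 0.350), and Zfp46 completed the 12. In the DESeq2 run, 11 of the named genes that edgeR did not call passed, among them Zfp46, Gcc2, St8sia4, Jarid2, Lmod1, Gpd1, Stc2 and Slco5a1. That run called 26 genes in all.

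Gene lists are described next by counts and by the median log2 fold change of their tested members, beside the shares over all genes given above. The first 2 lists follow what Clic4 is known for. Of 29 tested TGF-beta and Smad genes, 18 were above 0 and 11 below, with a median of 0.01. Of these, 2 had both KO libraries above all WT (6.90%). The 2 KO libraries went opposite ways: without KO replicate 1 the list had 21 above 0 and a median of 0.10, and without KO replicate 2 it had 23 below 0 and a median of -0.071. Tgfb3, a TGF-beta ligand, stood at 53.01 and 48.2 CPM in KO and 36.6, 44.8, 40.98 and 38.1 CPM in WT (log2 fold change 0.335, SE 0.104, adjusted p = 0.619). Ltbp1, which anchors latent TGF-beta in the matrix, stood at 154 and 173 CPM in KO and 138 to 143 CPM in WT (0.22, adjusted p = 0.747). For the type II receptor Tgfbr2 the groups overlapped, at 385 and 335 CPM in KO and 336 to 350.4 CPM in WT (0.08, adjusted p = 0.875).

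Of 25 tested chloride and anion channel genes outside the CLIC family, 16 were above 0 and 9 below, with a median of 0.05. Slc26a9, an anion transporter of airway and alveolar epithelium, stood at 95.6 and 79.4 CPM in KO and 70.3, 53.2, 67.6 and 73.6 CPM in WT (0.40, SE 0.139, adjusted p = 0.661). Of the 25, 3 had both KO libraries above all WT and 2 had both below. The median was -0.00089 without KO replicate 2 and 0.024 without WT replicate 2.

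Of 23 tested capillary endothelial genes, 18 were below 0, with a median of -0.13, and 4 (17.4%) had both KO libraries below all WT. Without KO replicate 1 the median was -0.036, with 14 below 0 and 9 above, and the level of the list in KO replicate 2 (-0.035 on the log2 scale, as a median over members) lay within the WT range of -0.090 to 0.097. In bulk lung, fewer cells of a type and less RNA per cell cannot be told apart, here or for any list that follows. Kdr, the main receptor for vascular endothelial growth factor, stood at 676 and 664 CPM in KO and 743.2, 833, 762 and 774 CPM in WT (-0.22, SE 0.0834, adjusted p = 0.697). Aplnr, the apelin receptor of general capillary cells, stood at 90.35 and 79.03 CPM in KO and 93.6 to 116 CPM in WT (-0.28, adjusted p = 0.712). Tek, the angiopoietin receptor, overlapped between the groups, at 491 and 437 CPM in KO and 465 to 594 CPM in WT. Car4, a marker of the aerocyte type of capillary cell, stood at 241 and 226 CPM in KO and 196 to 223 CPM in WT (0.15, adjusted p = 0.724). It is also in the alveolar macrophage list. At day 14 Car4 rose by 0.28 (adjusted p = 0.0180) and passed the test. The capillary list's median there was -0.077, with 15 of 23 below 0. The pan-endothelial genes Pecam1 and Cdh5 were chosen after their values were seen. Pecam1 stood at 1083 and 1023 CPM in KO and 1012 to 1086 CPM in WT, and Cdh5 at 1349 and 1374 CPM in KO and 1252 to 1363 CPM in WT.

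All 10 tested lymphatic endothelial genes were below 0, with a median of -0.26, and 7 (70.0%) had both KO libraries below all WT. None passed the test. Lyve1, the lymphatic hyaluronan receptor that macrophages also express, stood at 130.5 and 120 CPM in KO and 194, 182, 202 and 172 CPM in WT (-0.58, SE 0.333, adjusted p = 0.792). Flt4, the lymphatic growth factor receptor, had overlapping groups, at 92.0 and 85.9 CPM in KO and 91.85 to 110 CPM in WT (-0.18, adjusted p = 0.784). Sned1 stood at 54.6 and 72.4 CPM in KO and 72.9 to 89.0 CPM in WT (-0.31, adjusted p = 0.765). The median was -0.22 without KO replicate 1 and -0.19 without KO replicate 2.

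Lymphocyte genes were lower in KO lung. All 20 tested natural killer (NK) and cytotoxic genes were below 0, with a median of -1.09, and 16 (80.0%) had both KO libraries below all WT, against 9.12% of all genes. None passed the adjusted test, and 12 had an unadjusted p under 0.05. Tbx21, the transcription factor T-bet, stood at 3.74 and 2.01 CPM in KO and 4.84, 4.29, 5.22 and 7.67 CPM in WT (-0.93, SE 0.260, adjusted p = 0.581). Eomes, its partner in NK cells, stood at 2.47 and 2.12 CPM in KO and 5.74, 4.38, 5.25 and 9.67 CPM in WT (-1.44, SE 0.493, adjusted p = 0.661). Klrk1, the activating receptor NKG2D, stood at 5.58 and 3.02 CPM in KO and 7.84 to 17.6 CPM in WT (-1.31, adjusted p = 0.676), and Klri2 at 1.91 and 1.08 CPM in KO and 3.04 to 6.48 CPM in WT (-1.48, adjusted p = 0.619). KO replicate 2 was the lowest and WT replicate 4 the highest library in all of these genes. The median was -1.57 without KO replicate 1, -0.61 without KO replicate 2 and -0.81 without WT replicate 4. At day 14 the list's median was -0.53.

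All 23 tested B cell genes were below 0 as well, with a median of -0.87, and 17 (73.9%) had both KO libraries below all WT. Spib, a transcription factor of B cells and plasmacytoid dendritic cells, stood at 10.6 and 6.37 CPM in KO and 21.8, 14.8, 14.7 and 16.8 CPM in WT (-1.01, SE 0.319, adjusted p = 0.619). Blnk, an adaptor of the B cell receptor, stood at 6.67 and 3.95 CPM in KO and 9.11 to 11.3 CPM in WT (-0.95, adjusted p = 0.619), and Cd37 at 27.6 and 18.5 CPM in KO and 33.6 to 43.8 CPM in WT (-0.77, adjusted p = 0.676). The median was -1.40 without KO replicate 1 and -0.51 without KO replicate 2. At day 14 it was 0.06. The summed level of the B cell list was 357 and 218 CPM in KO and 422 to 581 CPM in WT.

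T cell genes followed with a smaller difference. All 24 tested were below 0, with a median of -0.47, and 13 (54.2%) had both KO libraries below all WT. Lck, the kinase of T cell receptor signalling, stood at 21.35 and 15.97 CPM in KO and 31.9, 25.3, 24.5 and 36.7 CPM in WT (-0.665, SE 0.293, adjusted p = 0.729). Icos, a costimulatory receptor, stood at 2.96 and 2.38 CPM in KO and 2.95 to 4.78 CPM in WT (-0.53, adjusted p = 0.729). At day 14 the median was -0.10. Most markers of other lymphoid tissue were below 0 as well. Of 5 thymus genes tested, 4 were below 0, and their summed level was 8.89 and 9.19 CPM in KO and 11.3 to 17.4 CPM in WT, while the thymocyte gene Rag1 stood at 0.212 and 0.186 CPM in KO and at or below 0.340 CPM in WT, and Ptcra at 0 and 0.0372 CPM in KO and at or below 0.0358 CPM in WT. Of 12 tested lymph node genes, 9 were below 0 and 3 above, and 5 (41.7%) had both KO libraries below all WT, against 9.12% of all genes. Cxcl13, among those above 0, stood at 3.95 and 2.31 CPM in KO and 1.63 to 3.30 CPM in WT. The 12 genes summed to 162 and 130 CPM in KO and 186 to 231 CPM in WT. The part of these thymus and lymph node genes in the lymphocyte values was not tested.

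Interferon-stimulated genes, which are switched on by factors that include STAT2, IRF9 and IRF7, were all below 0 among the type I genes tested. Many of their promoters carry a repeat that such factors bind, written here as GAAA, any 2 bases and GAAA, and 4 promoter stretches are shown because these genes moved together from library to library. The 4 genes were singled out after their values were seen. Capitals mark the repeat on either strand, stretches run 5′ to 3′ in the direction of the gene, and the sequences are RefSeq's on GRCm38.p6.
Isg15, chr4:156200845-156200914, minus strand, nearest match 56 bases before the start: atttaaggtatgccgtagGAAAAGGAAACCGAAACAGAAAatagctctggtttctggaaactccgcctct
Oas3, chr5:120777695-120777764, minus strand, 65 bases before the start: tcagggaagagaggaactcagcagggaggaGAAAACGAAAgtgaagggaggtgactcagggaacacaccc
Ifit1, chr19:34640774-34640843, plus strand, 75 bases before the start: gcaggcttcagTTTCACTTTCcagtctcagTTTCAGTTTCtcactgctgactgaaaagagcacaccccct
Stat2, chr10:128270248-128270315, plus strand, 212 bases before the start: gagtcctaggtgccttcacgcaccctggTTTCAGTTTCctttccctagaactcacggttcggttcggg
Searched on both strands of 300 bases around the start, with overlapping matches counted, the repeat was in 11 of the 18 type I interferon-stimulated genes with a RefSeq window (61.1%) and in 9 of 12 interferon gamma genes (75.0%). It was in 3.90% of the windows of tested genes, in 2 of 15 NK gene windows (13.3%) and in 2 of 17 B cell gene windows (11.8%). A match is a description of the letters and not of a bound site.

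Isg15, a ubiquitin-like protein, stood at 8.61 and 4.36 CPM in KO and 9.39, 13.3, 10.97 and 38.7 CPM in WT. Oas3, a sensor of double-stranded RNA, stood at 4.02 and 1.90 CPM in KO and 4.95, 4.35, 4.47 and 20.4 CPM in WT. Ifit1, which blocks translation of viral RNA, stood at 19.1 and 17.5 CPM in KO and 19.5, 25.3, 21.1 and 85.0 CPM in WT. In each of them WT replicate 4 lay far above the other 5 libraries and the remaining WT libraries lay nearer to, but above, the KO libraries. Stat2, a subunit of the factor that reads the repeat, stood at 68.7 and 58.1 CPM in KO and 74.1, 84.2, 84.4 and 167 CPM in WT, in the same order. All 24 tested type I genes were below 0, with a median of -0.96, and 15 (62.5%) had both KO libraries below all WT. No member reached an unadjusted p of 0.05. Mx2, of the antiviral Mx GTPase family and annotated as a polymorphic pseudogene in the mouse, had the smallest p. It stood at 5.51 and 2.72 CPM in KO and 7.84, 14.0, 9.89 and 31.2 CPM in WT (-1.92, SE 1.58, adjusted p = 0.848). Irf7, the transcription factor that amplifies the response, stood at 24.0 and 11.7 CPM in KO and 27.1, 36.3, 32.1 and 131 CPM in WT (-1.66, SE 1.48, adjusted p = 0.864). In Rtp4 the groups overlapped, at 20.6 and 10.05 CPM in KO and 18.2 to 81.3 CPM in WT (-1.31, adjusted p = 0.863).

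Without WT replicate 4 the median of the type I list was -0.50, and 15 of the 24 genes had both KO libraries below the other 3 WT libraries, against 11.8% of all genes in that comparison. At day 14 the list's median was -0.04. There 1 library of each genotype stood high, KO replicate 2 at 2.59 and WT replicate 5 at 2.67, against -0.86 to 0.47 in the others. These levels are medians over members of log2 CPM minus the WT day 0 mean. Of 16 interferon gamma genes 14 were below 0, with a median of -0.69 and 8 (50%) with both KO libraries below all WT. Gbp5, a guanylate-binding protein, stood at 17.7 and 8.45 CPM in KO and 20.7, 24.5, 18.9 and 37.1 CPM in WT (-0.95, SE 0.634, adjusted p = 0.813), and Gbp9 at 104 and 91.2 CPM in KO and 118 to 214 CPM in WT (-0.68, adjusted p = 0.845). Without WT replicate 4 that median was -0.37. All 15 tested class I histocompatibility genes were below 0, with a median of -0.27, but only 1 (6.67%) had both KO libraries below all WT. The median was -0.086 without KO replicate 2 and -0.14 without WT replicate 4. Without KO replicate 1 it was -0.53. There 14 of the 15 lay below all WT in the remaining KO library, against 25.5% of all genes in that comparison. In H2-Q7 the groups overlapped, at 101 and 71.5 CPM in KO and 93.9, 116, 143 and 192 CPM in WT (-0.66, adjusted p = 0.793). The lymph node gene Glycam1 was high in the same WT library, and its part in the interferon values was not tested.

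**Figure D3:**
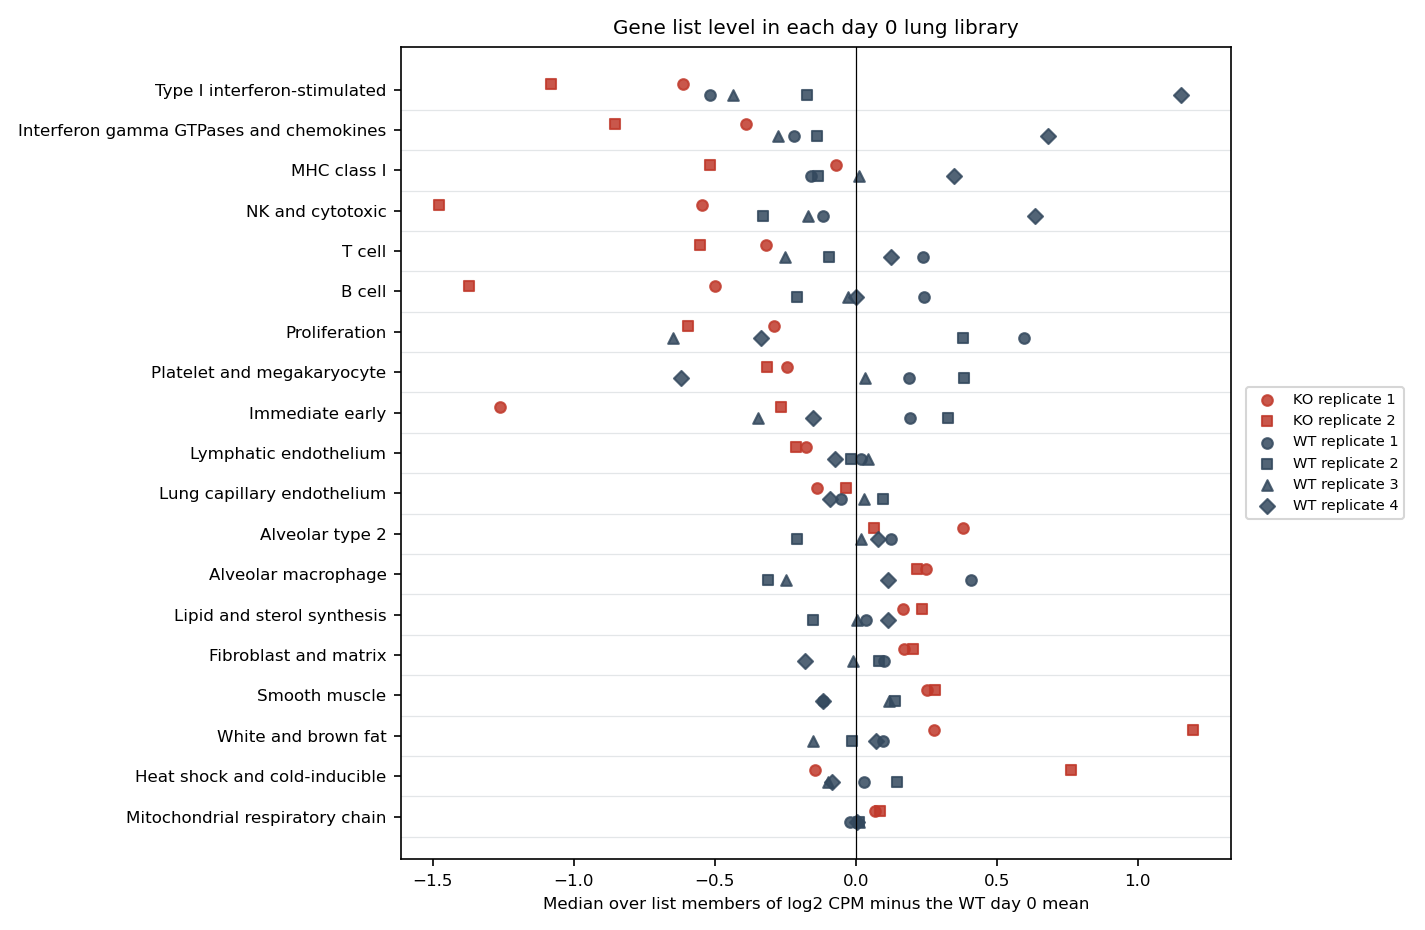
Level of 19 gene lists in each day 0 library, as the median over members of log2 CPM minus the WT mean (horizontal axis); red symbols are KO and dark symbols WT. KO libraries lie left of the WT libraries in the NK, B cell and T cell lists, WT replicate 4 alone lies far right in the interferon lists, and KO replicate 2 alone lies far right in the fat and heat shock lists.

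All 30 tested proliferation genes were below 0, with a median of -0.52, yet only 2 (6.67%) had both KO libraries below all WT. Birc5, a mitotic survival protein, stood at 2.68 and 2.61 CPM in KO and 6.17, 5.11, 3.35 and 2.94 CPM in WT (-0.74, SE 0.345, adjusted p = 0.730), with WT replicates 1 and 2 high. Rrm1, a subunit of ribonucleotide reductase, stood at 36.8 and 30.04 CPM in KO and 35.0 to 45.6 CPM in WT (-0.27, adjusted p = 0.711). The median was -0.29 without WT replicate 1 and -0.34 without KO replicate 2. All 16 tested platelet genes were below 0, with a median of -0.35, and 2 (12.5%) had both KO libraries below all WT. WT replicate 4 alone was low in this list, at -0.62 as a median over members, below both KO libraries (-0.24 and -0.31). Without it 14 of the 16 had both KO libraries below the other 3 WT libraries, against 11.8% of all genes, with a median of -0.51. With another WT library left out instead, 2 or 3 of the 16 did so, with medians from -0.26 to -0.38. The median was -0.37 without KO replicate 1 and -0.28 without KO replicate 2. Gp1bb, part of the von Willebrand factor receptor, stood at 0.4235 and 0.856 CPM in KO and 1.67, 1.49, 1.63 and 0.645 CPM in WT (-1.09, adjusted p = 0.729). The hemoglobin gene Hbb-bs stood at 6365 and 2984 CPM in KO and 5940, 5910, 2707 and 2775 CPM in WT, in 2 levels that each genotype shared.

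All 17 tested alveolar type 2 cell genes were above 0, with a median of 0.24, 6 (35.3%) had both KO libraries above all WT against 8.88% of all genes, and 7 had an unadjusted p under 0.05. Sftpc, a surfactant protein of these cells, stood at 14250.5 and 13258.9 CPM in KO and 12458.3, 10236.6, 12242.2 and 10924.4 CPM in WT (0.26, SE 0.0985, adjusted p = 0.697). Abca3, which loads surfactant lipid into lamellar bodies, stood at 646 and 555 CPM in KO and 536, 415, 516 and 511 CPM in WT (0.28, SE 0.104, adjusted p = 0.693). Muc1, an apical mucin, stood at 282 and 270 CPM in KO and 210 to 247 CPM in WT (0.24, adjusted p = 0.676), and the phosphate transporter Slc34a2 at 2109 and 1937 CPM in KO and 1254 to 1789 CPM in WT (0.33, adjusted p = 0.709). KO replicate 1 was the higher of the KO pair in all 4 genes, and the median was 0.06 without it and 0.37 without KO replicate 2. At day 14 the median was 0.08.

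Genes of fatty acid and sterol synthesis were higher in both KO libraries. Of 27 tested, 25 were above 0, with a median of 0.21, and 13 (48.1%) had both KO libraries above all WT. Fasn, the fatty acid synthase, stood at 543 and 688 CPM in KO and 461, 344, 367 and 402 CPM in WT (0.65, SE 0.197, adjusted p = 0.619). Me1, which supplies NADPH for that synthesis, stood at 65.6 and 72.1 CPM in KO and 51.8, 50.55, 46.9 and 51.7 CPM in WT (0.455, SE 0.125, adjusted p = 0.581). Fads1, a desaturase, stood at 180.1 and 179.7 CPM in KO and 154 to 164 CPM in WT (0.20, adjusted p = 0.661), and Acaca, which makes malonyl-CoA, at 84.4 and 122 CPM in KO and 61.8 to 84.2 CPM in WT (0.45, adjusted p = 0.712). The median was 0.23 without KO replicate 1 and 0.16 without KO replicate 2. At day 14 it was 0.05. Fat markers moved with this list, and their part in it was not tested.

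Those fat genes had a median of 0.81, with 18 of 20 tested members above 0 and 9 (45%) with both KO libraries above all WT. Their summed level was 586 and 746 CPM in KO and 437 to 528 CPM in WT. The brown fat genes set KO replicate 2 apart from every other library. Ucp1, the uncoupling protein of brown fat, stood at 0.106 and 24.2 CPM in KO and 0.0283 to 0.0913 CPM in WT (adjusted p = 0.619). Elovl3, a fatty acid elongase of brown fat, stood at 0.0706 and 0.856 CPM in KO and had no counts in WT, and Cidea, a lipid droplet protein, stood at 1.59 and 7.82 CPM in KO and 0.905 to 1.83 CPM in WT. Adipoq, the white and brown fat hormone adiponectin, was present everywhere, at 6.49 and 15.0016 CPM in KO and 3.69 to 6.02 CPM in WT. The median of the fat list was 0.26 without KO replicate 2.

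**Figure D4:**
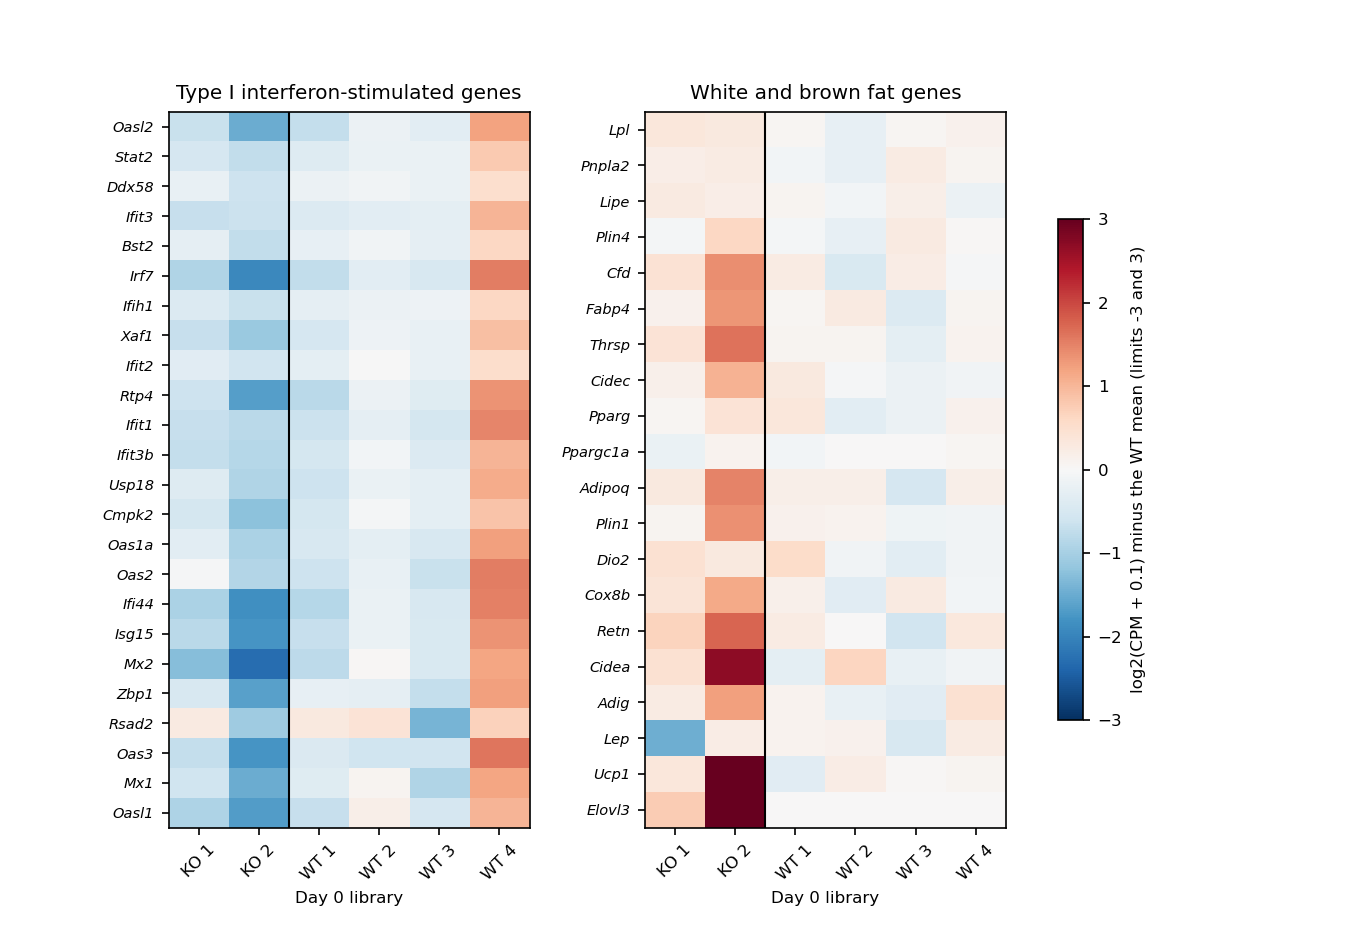
The 24 type I interferon-stimulated genes described (left) and the 20 fat genes (right) in the 6 day 0 libraries, ordered by WT level and coloured by log2(CPM + 0.1) minus the WT mean, with the scale limited to 3 either way. WT replicate 4 stands out across the interferon genes, and KO replicate 2 stands out for Ucp1, Elovl3 and Cidea.

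Alveolar macrophage genes were above 0 in 18 of 19 tested, with a median of 0.23, and 4 (21.1%) had both KO libraries above all WT. The level of the list in WT replicate 1 (0.41) lay above both KO libraries (0.25 and 0.22), and the median was 0.40 without it and 0.15 without KO replicate 1. The list shares lipid genes with fat: Fabp4, a fatty acid carrier, stood at 26.5 and 60.1 CPM in KO and 18.1 to 28.9 CPM in WT (0.83, SE 0.373, adjusted p = 0.729). Plet1, a marker of these macrophages outside fat, stood at 65.3 and 65.8 CPM in KO and 64.7, 49.55, 44.7 and 55.4 CPM in WT (0.29, adjusted p = 0.749).

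Mesenchymal genes were higher in KO lung. Of 30 tested fibroblast and matrix genes, 25 were above 0, with a median of 0.16, and 12 (40%) had both KO libraries above all WT. Eln, the elastin gene, had the smallest p: it stood at 519 and 394 CPM in KO and 278, 253, 318 and 219 CPM in WT (0.77, SE 0.208, adjusted p = 0.581). Col15a1, a basement membrane collagen of stroma, stood at 34.2 and 36.9 CPM in KO and 26.1, 20.9, 24.6 and 21.4 CPM in WT (0.61, SE 0.192, adjusted p = 0.619). Col4a2, a chain of the main basement membrane collagen, stood at 1323 and 1459 CPM in KO and 1044 to 1269 CPM in WT (0.26, adjusted p = 0.682). At day 14 the list's median was -0.03, while Eln was 0.28 and Col15a1 0.28 on the log2 scale. The day 0 median was 0.11 without WT replicate 4.

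Of 14 tested smooth muscle genes, 13 were above 0, with a median of 0.26, 5 (35.7%) had both KO libraries above all WT and 6 had an unadjusted p under 0.05. Lmod1 headed them. Des, the intermediate filament desmin, stood at 214 and 226 CPM in KO and 157, 197, 187 and 162 CPM in WT (0.32, SE 0.0856, adjusted p = 0.581). Cnn1, calponin 1, stood at 46.3 and 45.3 CPM in KO and 29.5, 36.1, 41.15 and 31.6 CPM in WT (0.41, adjusted p = 0.697). The median ran from 0.20 to 0.32 over the 6 runs that each left out 1 day 0 library, and at day 14 it was 0.18. The heart gene Myh6, from muscle of the pulmonary veins or heart, stood at 526 and 792 CPM in KO and 634 to 831.3 CPM in WT and did not follow the smooth muscle genes.

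Genes that respond to tissue handling differed between single libraries. Of 23 tested immediate early genes, 22 were below 0, with a median of -0.59 and 7 (30.4%) with both KO libraries below all WT. Ccn1, a matricellular protein switched on within minutes of stretch or serum, stood at 81.5 and 192 CPM in KO and 396, 450.0, 176 and 289 CPM in WT (-1.26, SE 0.800, adjusted p = 0.802). Klf2, a flow-responsive factor of endothelium, stood at 222 and 202 CPM in KO and 318, 424, 312 and 331 CPM in WT (-0.71, SE 0.353, adjusted p = 0.756), without overlap. Zfp36, an mRNA decay factor, stood at 159 and 317 CPM in KO and 338 to 579 CPM in WT (-0.92, adjusted p = 0.822). KO replicate 1 had the lowest level of the list, whose median was -0.29 without KO replicate 1 and -1.39 without KO replicate 2. At day 14 the median was -0.46.

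Of 16 tested heat shock and cold-inducible genes, 14 were above 0, with a median of 0.39, but only 1 (6.25%) had both KO libraries above all WT. Hspe1, the mitochondrial co-chaperonin, stood at 38.0 and 62.9 CPM in KO and 34.6 to 41.0 CPM in WT (0.43, SE 0.154, adjusted p = 0.676). Hsp90aa1, the inducible cytosolic chaperone, stood at 533 and 1061 CPM in KO and 541 to 676 CPM in WT (0.43, adjusted p = 0.800). KO replicate 2 alone was high, and the median was -0.15 without it and 0.76 without KO replicate 1.

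Lists of cell metabolism and stress were nearer to 0. Of 26 tested genes of the mitochondrial respiratory chain, 23 were above 0 and 13 (50%) had both KO libraries above all WT, with a median of only 0.08. mt-Atp6, an ATP synthase subunit encoded in mitochondrial DNA, stood at 1405 and 1394 CPM in KO and 965.5, 1281, 1022 and 1072 CPM in WT (0.37, SE 0.135, adjusted p = 0.682), and the nuclear gene Cox5a at 56.0 and 58.9 CPM in KO and 47.0 to 54.0 CPM in WT (0.18, adjusted p = 0.765). Of 16 tested p53 targets, 11 were above 0 and 5 below, with a median of 0.12. Of these, 6 (37.5%) had both KO libraries above all WT and 2 (12.5%) had both below, against 8.88% and 9.12% of all genes. Their log2 fold changes ran from -0.93 to 0.53. Ccng1, a cyclin induced by p53, stood at 121 and 113 CPM in KO and 102, 96.2, 97.3 and 110 CPM in WT (0.20, SE 0.0644, adjusted p = 0.619). Zmat3, an RNA-binding p53 target, stood at 34.1 and 31.6 CPM in KO and 23.9 to 27.2 CPM in WT (0.35, adjusted p = 0.661).

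Of 20 tested genes of endoplasmic reticulum redox and stress, which include Selenon, 17 were above 0, with a median of 0.09, and 7 (35.0%) had both KO libraries above all WT. Sdf2l1, a chaperone cofactor, stood at 20.6 and 21.2 CPM in KO and 15.6, 14.9, 13.04 and 13.9 CPM in WT (0.54, SE 0.181, adjusted p = 0.629). The median was -0.0060 without KO replicate 2 and 0.23 without KO replicate 1.

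The named genes were then set beside their day 14 values. At day 14, 21 genes (0.107% of those tested) passed the KO against WT test. Clic4 fell by 1.64 (SE 0.0900), Selenon rose by 0.64 (SE 0.0450), Pnrc2 fell by 0.68 (SE 0.0758) and Gm10036 rose by 0.61 (SE 0.0838) on the log2 scale there, so 4 of the 5 genes called at day 0 were called again in the same direction. Outside 10 Mb of Clic4, the genes with the smallest day 0 p-values kept their direction more often: 24 of 32 (75.0%) with an unadjusted p under 0.001 did so, 73.2% of those up to 0.01, 65.7% up to 0.05 and 54.3% of those at 0.2 or above. The 2 contrasts share no libraries but share one model of the spread, and genes are not independent of each other. Of the uncalled genes, Prelp (-0.0091), Wnk4 (0.0081), Mdm4 (0.033) and St8sia4 (0.038) were near 0 at day 14. Slco5a1 had the opposite sign, with 0.53 at day 14. These genes were picked by their day 0 p, so values nearer to 0 at day 14 can follow from that choice alone. Other genes uncalled at day 0, Zfp46, Asap3, Slc30a2 and Car4 among them, passed at day 14.

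No gene passed the test of a KO effect that differed between the days. In that edgeR test of the interaction, 890 genes (4.55%) had an unadjusted p under 0.05 and the smallest adjusted p was 0.0566, that of Rsc1a1. DESeq2 called 9 genes in the same test.

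**Figure D5:**
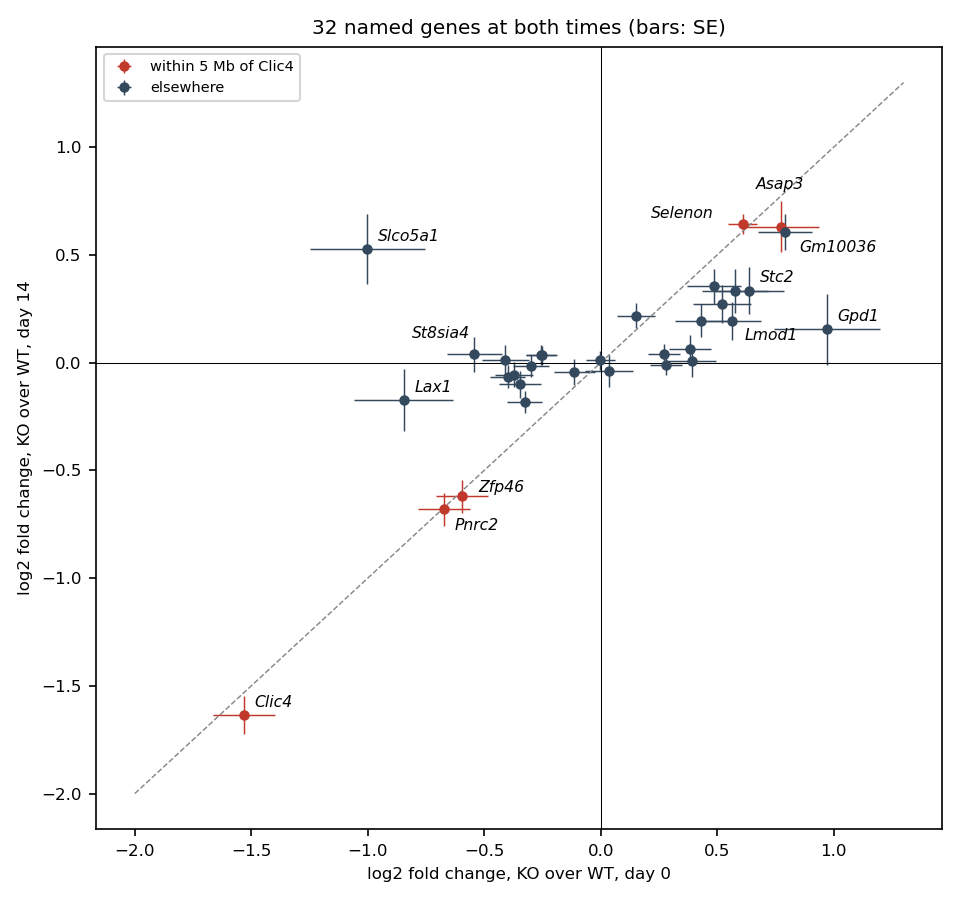
Log2 fold change of KO over WT at day 0 (horizontal axis) and at day 14 (vertical axis) for 32 named genes, with SE bars and a dashed line of equal values; Rsc1a1 is left out because it had no counts in KO at day 0. Genes within 5 Mb of Clic4 (red) lie near the line, and most other uncalled genes lie nearer to 0 at day 14. The uncalled genes outside the CLIC family were picked by their day 0 p, so values nearer to 0 at day 14 can follow from that choice alone.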

How the data were processed

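The submitters deposited 1 file of expected counts per library for 54146 genes; per the submitters' processing notes the build was mm10 and the tools included RSEM 1.3.0, STAR 2.5.3 and limma 3.38.3. Per the labels, total RNA came from Qiagen RNeasy columns and libraries from an Illumina TruSeq v4 kit. The authors also deposited a table of FPKM, used for levels between genes and for 3 alternatives with limma. Strandedness is not given in the sources used here.

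Expected counts were rounded. Genes were filtered by group with filterByExpr, scaled with TMM (factors 0.977 to 1.01), and fitted with edgeR 4.0.16 (estimateDisp, robust glmQLFit, glmQLFTest) over all 17 libraries in 4 groups, which share 1 estimate of the spread (common biological coefficient of variation 0.152). SE is the absolute log2 fold change over the square root of F. CPM are counts per 1000000 after TMM scaling. The group total behind a floor of 3 counts covers counting error only. The day 0 libraries held 27192368 to 35261458 counts each.

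Groups came from the labels. Replicate numbers follow accession order and pair nothing. Title numbers run with genotype, so any order they record cannot be told apart from it. No pair of day 0 libraries agreed within sampling noise (chi-square per gene of 12.4 to 27.8). Alternatives were DESeq2 1.42.0, limma-voom (limma 3.58.1), other scaling and filters, log2(FPKM + 1) and log2(FPKM + 0.1), the day 0 libraries alone, and leaving out each library. The members and lists were chosen with earlier results of these data known. The genes named were those called, the CLIC genes, 12 uncalled genes each way with the smallest p at 5 CPM or more and no overlap, up to 4 members per list by p, sequence relatives of called genes, and tissue markers. Of 46 lists, those whose values are given in the text are described and the others are not. Some items are not reported here. Gene coordinates are those of GENCODE M21 on GRCm38, which mm10 names.

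On simulated data with 19264 genes and the same group sizes, the edgeR code recovered 43.3, 97.0 and 98.5% of genes changed by 0.5, 1 and 2 on the log2 scale between KO and WT at day 0, with 9 false calls among 168. The changed genes were drawn from those with a mean of at least 5 CPM, so recovery at lower levels was not simulated. They numbered 67, 67 and 66 by size, and the 168 calls compare with 5 in the data. More calls make the adjusted p easier to pass, so recovery in the data can be lower. Shifts shared by many genes of 1 library, as seen in KO replicate 2 and WT replicate 4, were not simulated.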

Additional observations from a re-analysis of the deposited data

Results flagged for a closer look

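In 58 sets of 4 WT values, of named genes or list levels, 3 had 1 library far from the other 3, where the gap to the nearest library exceeded Dixon's 95% critical share of the range; chance gives about 1 in 20 such sets. Smoc2, a matricellular protein gene, stood at 15.7 CPM in WT replicate 2 and at 18.6 to 19.1 CPM in the other WT libraries. Nin, a centrosomal protein gene, stood at 85.5 CPM in WT replicate 1 and at 79.7 to 80.7 CPM in the others. The interferon gamma list stood at 0.681 in WT replicate 4, as the median log2 difference from the WT mean, and at -0.275 to -0.139 in the others. The type I interferon list had the same library on top, at 1.155 against -0.515 to -0.172, without passing that ratio.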

How the results depend on the processing

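No paired analysis was possible because replicate numbers follow accession order and the labels tie no libraries together. Against 5 genes called in the edgeR fit, DESeq2 called 26 (11 higher, 15 lower), limma-voom 3 (1 lower), log2(FPKM + 1) without a filter 17 (14 higher) and the day 0 libraries alone 13 (11 lower). Over the runs that each left out 1 library, the calls ran from 2 to 7, with 1 to 3 higher and 1 to 4 lower. Without KO replicate 1 or KO replicate 2 the 2 calls were Clic4 and Selenon. The test of a difference between days gave 9 genes with DESeq2, 1 with a stricter filter, and 0 to 1 with 1 library left out. Clic4 and Selenon were called under each of the 26 alternatives. Pnrc2 lost its call under 13 (adjusted p of 0.0517 to 0.731), Gm10036 under 4 (0.0539 to 0.174) and Rsc1a1 under 3 (0.151 to 0.578).

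Most named genes were picked by their day 0 p, some also by no overlap, so a kept sign can follow from that choice alone. Leaving out a day 14 library removes no day 0 values. Of 126 named uncalled genes, 120 kept their sign under the alternatives run. The log2 fold change of the others, with 1 library left out, ran from -0.0237 to 0.0299 for Clic1, -0.0431 to 0.108 for Clic3, -0.153 to 0.840 for Hsp90aa1, -0.136 to 0.714 for Hspd1 and -0.0258 to 0.173 for Tgfbr2. Clic1 was 0.0020 with the day 0 libraries alone and 0.0011 with a stricter filter. Rpl11 was 0.038 with each of the 3 FPKM settings. The cause was not tested. With 2 KO libraries, fewer genes changed by 0.5 on the log2 scale were recovered in simulation (43.3%) than genes changed by 1 (97.0%). Both shares are for genes with a mean of at least 5 CPM. The simulation gave 168 calls against 5 in the data, so recovery in the data can be lower.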

Other observations

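Airway genes, outside the comparisons above, were described in the same way. Of 17 tested airway secretory genes 15 were above 0, with a median of 0.15, and none had both KO libraries above all WT. Scgb3a1, a secretoglobin of upper airways, stood at 190 and 231 CPM in KO and 119, 112, 209 and 141 CPM in WT, and the median was -0.0099 without KO replicate 2, 0.26 without KO replicate 1 and 0.22 without WT replicate 3. Of 17 tested genes of motile cilia 14 were above 0, with a median of 0.09 at day 0 and 0.24 at day 14. The day 0 median was 0.0099, with 9 above 0 and 8 below, without KO replicate 2, 0.14 without KO replicate 1, 0.16 without WT replicate 3 and 0.055 without WT replicate 1. Dnah5, an outer dynein arm heavy chain, stood at 28.3 and 38.4 CPM in KO and 25.4 to 32.6 CPM in WT.

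Of 17 tested genes of the metastatic niche, 7 were above 0 and 10 below, with a median of -0.037. Without KO replicate 1 there were 4 above 0, and without KO replicate 2 there were 11. Both KO libraries lay above all WT in 1 of the 17 (5.88%, against 8.88% of all genes) and below all WT in 1. The chemokine gene Cxcl12 stood at 485 and 424 CPM in KO and 329, 367.5, 369 and 394.5 CPM in WT (log2 fold change 0.32, edgeR adjusted p = 0.640). Cxcl12 was 0.34 higher at day 14. Cemip, which degrades hyaluronan, stood at 4.31 and 3.50 CPM in KO and 1.19 to 1.79 CPM in WT (1.36, edgeR adjusted p = 0.1404), and it rose by 1.36 at day 14 (adjusted p = 0.00324). Cxcl12 and Cemip were chosen after their values were seen.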
